A study of Mus musculus with 10 samples.

Results

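Pol II occupancy was examined at 6 genes of the pluripotency network in mouse, Pou5f1, Sox2, Nanog, Klf4, Esrrb and Zfp42. For each gene, the Pol II peaks that shared at least 1 bp with a fixed window on the mouse build mm9 were taken from the peak lists of embryonic stem (ES) cells and of mouse embryonic fibroblasts (MEFs). The windows held 52 of the 32345 ES peaks and 3 of the 13306 MEF peaks. The windows were Pou5f1 chr17:35640000-35650000, Sox2 chr3:34543000-34557000, Nanog chr6:122652000-122670000, Klf4 chr4:55535000-55550000, Esrrb chr12:87697000-87868000 and Zfp42 chr8:44375000-44397000. Each is wider than the RefSeq length of its gene, which is 4746 bp for Pou5f1, 2467 bp for Sox2, 7145 bp for Nanog, 5339 bp for Klf4, 160512 bp for Esrrb and 11943 bp for Zfp42 (GRCm38.p6). An mm9 annotation was not used here, so no peak is assigned to an exon, an intron or a start site.

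The series is a chromatin immunoprecipitation sequencing (ChIP-seq) study of Pol II and of 3 Pol III subunits, with 1 library per antibody in each of 2 cell types. ES-E14TG2a is an established mouse embryonic stem cell line, grown on 0.1% gelatin with leukaemia inhibitory factor (LIF) and 10% serum. The MEFs were primary cells from E12.5 embryos, grown with 10% serum and no LIF and passaged 3 to 5 times. The labels state no transgene, deletion or drug treatment for either cell type, so neither is described here as wild type. The MEFs are a culture of mixed embryonic cells whose number of donor embryos the labels do not state. Both Pol II libraries used the N-20 antibody. Depth per library is unknown, because the lists hold called peaks and no read counts. With 1 library per cell type there is no replicate error and no test, so every difference below is a difference between 2 peak lists. A window without a peak shows no call at the authors' threshold, not that Pol II is absent.

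Pou5f1 encodes OCT4, a POU-domain factor that binds DNA together with the HMG-box protein SOX2, and the pair activates many genes of the pluripotent state, their own among them. NANOG, a homeodomain protein, ESRRB, an orphan nuclear receptor, and KLF4, a zinc-finger factor, bind many of the same enhancers and help to hold ES cells in self-renewal. Zfp42, known as Rex1, encodes a zinc-finger protein that is widely used as a marker of the naive pluripotent state. Klf4 is also active in many differentiated cells, fibroblasts and epithelia among them, and Sox2 and Esrrb have roles in other tissues too.

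The promoters of 3 of the genes hold the core letters of the octamer that OCT4 binds. They are shown because they put the regulatory letters of these factors beside the genes on which Pol II was mapped. The Klf4 promoter is shown as one without these letters, at the gene with wide peaks in both cell types. Pou5f1 and Esrrb also lacked ATGCAAA in their promoter entries, and their windows held no MEF peak. Nanog had ATGCAAA, and its window held a MEF peak. No link between these letters and the peaks is therefore read from the promoters shown. All 6 genes matched the RefSeq promoter table (GRCm38.p6, 250 bases before to 50 after each start), and the 250 bases before the start are printed 5′ to 3′ on the gene's strand. Capitals mark, in Nanog, ATGCAAA next to the SOX-type letters CATTGT with 1 base between them (read on the other strand), in Sox2 ATGCAAA, in Zfp42 the full octamer ATGCAAAT (on the other strand), and in Klf4 the GC box GGGCGG on either strand.
Nanog (chr6:122707239-122707488, plus strand): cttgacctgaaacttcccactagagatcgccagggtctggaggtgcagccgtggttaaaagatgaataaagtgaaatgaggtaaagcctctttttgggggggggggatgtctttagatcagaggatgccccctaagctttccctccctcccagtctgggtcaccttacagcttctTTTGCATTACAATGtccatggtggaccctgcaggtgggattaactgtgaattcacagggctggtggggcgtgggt
Sox2 (chr3:34649745-34649994, plus strand): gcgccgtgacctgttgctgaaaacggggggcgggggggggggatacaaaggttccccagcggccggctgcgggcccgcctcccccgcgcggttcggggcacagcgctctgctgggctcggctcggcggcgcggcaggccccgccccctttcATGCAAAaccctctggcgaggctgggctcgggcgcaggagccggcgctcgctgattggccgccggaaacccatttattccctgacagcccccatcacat
Zfp42 (chr8:43307010-43307259, minus strand): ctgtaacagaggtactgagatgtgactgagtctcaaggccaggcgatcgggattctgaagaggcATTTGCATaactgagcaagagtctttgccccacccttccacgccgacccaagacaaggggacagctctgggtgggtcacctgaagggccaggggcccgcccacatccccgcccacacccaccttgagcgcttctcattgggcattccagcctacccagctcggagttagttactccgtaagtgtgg
Klf4 (chr4:55532476-55532725, minus strand): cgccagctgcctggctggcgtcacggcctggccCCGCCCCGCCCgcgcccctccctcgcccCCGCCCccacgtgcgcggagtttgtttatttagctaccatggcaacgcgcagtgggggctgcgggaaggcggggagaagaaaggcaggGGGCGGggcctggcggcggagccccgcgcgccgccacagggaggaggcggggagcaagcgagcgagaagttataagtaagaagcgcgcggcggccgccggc

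ATGCAAA, searched on both strands, occurred in promoters of 3 of the 6 genes, against 5.24% of all 27025 genes in the table, counting a gene if any of its promoters held the letters. The full octamer ATGCAAAT, which contains it, was found at Zfp42 alone among the 6, against 1.97% of all genes. CATTGT followed after 1 base by ATGCAAA stood at 1 gene of the whole table, Nanog, in both of its overlapping promoter entries, where it begins 75 bases before the first start. GGGCGG was present at 4 of the 6 genes (Sox2, Klf4, Zfp42 and 1 of the 2 promoter entries of Pou5f1), against 38.2% of all genes, with 4 copies at Klf4. CATTGT by itself was found at Pou5f1, Nanog and Esrrb and at 14.3% of all genes. The motifs were chosen after the sequences had been read, so the match of the pair at Nanog was known in advance. Its rarity in the table is therefore not evidence about Nanog. The same choice lies behind the counts of the other motifs, so their contrasts with all genes are not evidence of enrichment at the 6 genes. A match is a description of letters, not a binding site. Positions of these promoters are on GRCm38.p6 and were not carried over to the mm9 peaks.

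In ES cells all 6 windows held Pol II peaks, and in MEFs only those of Klf4 and Nanog did. ES peaks covered 118491 of the 250006 bp in the windows (47.4%), whereas the whole ES list covered 1.77% of the genome between the first and last peaks of each chromosome. MEF peaks covered 10289 bp (4.12%), against 0.732% for the whole MEF list. Of the MEF total, 9463 bp lay at Klf4 and 826 bp at Nanog. ES peaks covered at least 62.9% of every window except that of Esrrb, and Klf4 was the window at which coverage in the 2 cell types was nearly equal.

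**Figure D1:**
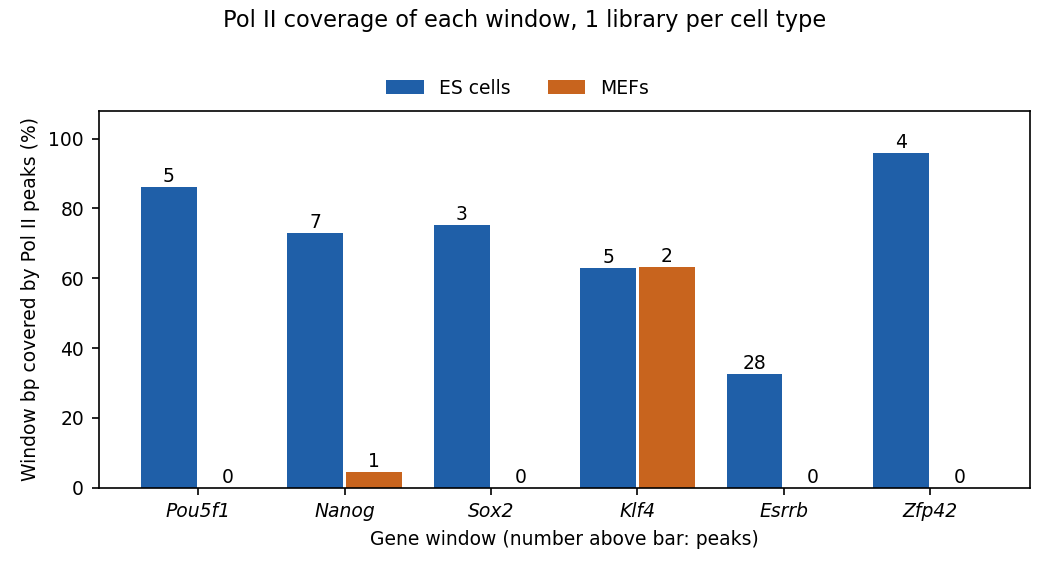
Share of each window (%, bars from 0) covered by Pol II peaks in ES cells (blue) and MEFs (orange), with the number of peaks above each bar and 1 library per cell type. Zfp42 was covered to 95.8% in ES cells and held no MEF peak, and Klf4 was covered to 62.9% in ES cells and 63.1% in MEFs.

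The number of windows called can be set against the genome. For this, every chromosome was cut into consecutive tiles of each window's width. An ES peak lay in 8.59% of tiles as wide as the Pou5f1 window, 10.6% for Sox2, 12.4% for Nanog, 11.1% for Klf4, 40.6% for Esrrb and 14.0% for Zfp42. The same tiles held a MEF peak in 5.45%, 7.19%, 8.75%, 7.53%, 37.9% and 10.3% of cases, respectively. Having an ES peak without a MEF peak was not rare among tiles with an ES peak, with shares of 58.4% at the width of Pou5f1, 54.4% at Sox2, 51.8% at Nanog, 54.2% at Klf4, 22.6% at Esrrb and 49.2% at Zfp42. Of the 6 windows, 4 showed this pattern, which is not far above those shares. The extent of coverage was less common. Only 0.207% of tiles were covered in ES cells as much as the Pou5f1 window. The share was 0.255% for Sox2, 0.225% for Nanog, 0.438% for Klf4, 0.253% for Esrrb and 0.0257% for Zfp42. The windows were placed around chosen genes, whereas tiles were laid without regard to genes and can cut a peak at their edges. These shares therefore do not show how the windows compare with windows around other genes active in ES cells.

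At Pou5f1, the gene of OCT4, 5 ES peaks covered 8625 of 10001 bp (86.2%), and no MEF peak lay in the window. The 2 strongest stood near the edges. The peak at chr17:35640356-35643298 scored 1635.49, rank 1018 of the ES list, and that at chr17:35647610-35655403 scored 3100. The authors' score has no stated scale and is used here only to rank peaks within a list. The value 3100 is shared by 370 ES peaks, with 24 above it, so these peaks have no order among themselves. Between the 2 strong peaks lay 2 weaker ones scored 281.03 and 301.38, at percentiles 75.4 and 77.0 of the list (the percent of peaks with a lower score), and a peak of 894 bp scored 228.93 at the left edge. The right-hand peak was 7794 bp wide and ran 5403 bp past the window, and a MEF peak of 1345 bp scored 129.74 (percentile 49.4) lay under this outer part, 3519 bp from the window. In GRCm38 gene order the protein-coding gene next to Pou5f1 is Tcf19 on 1 side and H2-Q10 on the other, and which gene the outer part of this peak covers was not determined. Of the 5 ES peaks, this was the only one that overlapped a MEF peak. Beyond the window, the nearest ES peaks lay 11995 bp to the left (score 257.92) and 20997 bp to the right (83.24), and the nearest MEF peak on the left 123264 bp away (156.64).

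At Sox2, the gene of OCT4's HMG-box partner, 3 ES peaks covered 10548 of 14001 bp (75.3%), again with no MEF peak. Nearly all of this was a pair of peaks 112 bp apart, chr3:34546988-34549429 with a score of 1580.82 (rank 1067) and chr3:34549542-34557232 with 2266.32 (rank 632). The second was 7691 bp wide, rank 340 by width. The third peak, of 647 bp, scored 52.66, close to the list's minimum of 50. Sox2 was remote from other Pol II peaks on its left, where the nearest ES peak lay 554321 bp away (score 61.0) and the nearest MEF peak 555348 bp away (79.8). On its right an ES peak followed after 255 bp (129.86), and the first MEF peak after 1096430 bp (54.96).

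Nanog, the gene of the homeodomain factor, had 7 ES peaks over 13133 of 18001 bp (73.0%). Of these, 3 were strong. They lay at chr6:122651821-122654542 (score 1895.6, rank 823), chr6:122656247-122659468 (1223.17, rank 1544) and chr6:122664282-122667173 (1226.89, rank 1535). The 2 peaks between the latter scored 227.93 and 188.52, and 2 narrow peaks at the right scored 58.31 and 53.44. In MEFs the window held 1 peak, chr6:122652606-122653431, of 826 bp, with a score of 225.14 (rank 3747 of 13306, percentile 71.8). This MEF peak lay wholly inside the leftmost strong ES peak, and the other 6 ES peaks of the window had no MEF counterpart. Only 6.29% of the bp covered in ES cells at Nanog were also covered in MEFs. The nearest ES peak to the left of the window was 6000 bp away (score 57.46). The nearest MEF peaks outside it were 99389 bp to the left (88.24) and 81120 bp to the right (51.67).

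Esrrb, the gene of the orphan receptor and by far the longest of the 6, had 28 ES peaks and no MEF peak. They covered 55671 of 171001 bp (32.6%), and they were not spread evenly. The first began 77176 bp from the window's left end, and the first 6 peaks, between chr12:87774176 and chr12:87807901, scored at most 99.73. All 7 Esrrb peaks of the list's top 10% by score lay to the right of them. The strongest was chr12:87841147-87846756, with a score of 3100 and a width of 5610 bp, followed by chr12:87860198-87866497 with 2004.77 (rank 763) and 6300 bp, and chr12:87810716-87813659 with 1223.97 (rank 1542). Scores over the 28 peaks ranged from 51.42 to 3100 with a median of 124.755, near the median of the whole ES list (122.02). Weak and strong calls stood side by side in the right-hand part of the window. Outside the window, the nearest ES peaks were 49845 bp to the left (score 63.83) and 1018 bp to the right (831.58). The nearest MEF peaks were 112989 bp to the left (456.46) and 273432 bp to the right (238.1).

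Klf4, the zinc-finger factor gene, was the window with wide peaks in both cell types. In ES cells 5 peaks covered 9436 of 15001 bp (62.9%), and in MEFs 2 peaks covered 9463 bp (63.1%), a difference of -27 bp for ES minus MEF. The 2 sets shared 8607 bp, or 91.2% of the ES bp and 91.0% of the MEF bp. Coverage can match while calls are split differently. The MEF peak chr4:55541816-55547944, of 6129 bp, reached over 3 ES peaks, chr4:55541753-55544323, chr4:55544477-55547062 and chr4:55547133-55547838. The other MEF peak, chr4:55536631-55539964, lay over the ES peak chr4:55537158-55540125. Only the ES peak of 605 bp at chr4:55541052-55541656 had no MEF partner, and it ended just before the wide MEF peak began.

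The ES scores at Klf4 were 1165.95, 100.56, 609.91, 1117.28 and 62.45 from left to right, at percentiles 94.9, 42.0, 89.0, 94.6 and 15.2 of the ES list. The MEF scores were 294.42 and 259.29, at percentiles 81.6 and 76.9 of the MEF list. Within their own lists, 3 of the 5 ES peaks thus stood above both MEF peaks and the other 2 below both. By width the MEF peaks ranked 737 and 93 of 13306, and the widest ES peak, 2968 bp, ranked 2473 of 32345. Outside the window, the nearest ES peaks lay 2544 bp to the left (score 50.82) and 4596 bp to the right (100.39). The nearest MEF peaks lay 6312 bp to the left (191.96) and 112975 bp to the right (591.18). A MEF coverage as large as at Klf4 was found in 11 of 170877 tiles of this width (0.00644%), which were laid without regard to genes. Sizes of score were not compared between the lists, since depth and scale are unknown.

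Zfp42, the marker of the naive state, was the most fully covered window, with 21078 of 22001 bp (95.8%) in ES cells and no MEF peak. Its first 3 peaks all scored 3100, and the fourth, chr8:44395554-44397084, scored 283.79. The widest of the 52 peaks was here, chr8:44367237-44380500, with 13264 bp, rank 77 by width, of which 7763 bp lay outside the window on its left. In GRCm38 gene order the protein-coding genes next to Zfp42 are Triml2 and Adam26b. Which gene the outer part of this peak covers was not determined. The other 2 peaks at 3100 were chr8:44380577-44386251 (5675 bp) and chr8:44386990-44395444 (8455 bp). The nearest MEF peaks lay 1872318 bp to the left (score 144.03) and 1622318 bp to the right (279.11), the longest distances among the 6 windows on both sides. The nearest ES peaks outside the window lay 85059 bp to the left (111.4) and 8750 bp to the right (866.3).

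**Figure D2:**
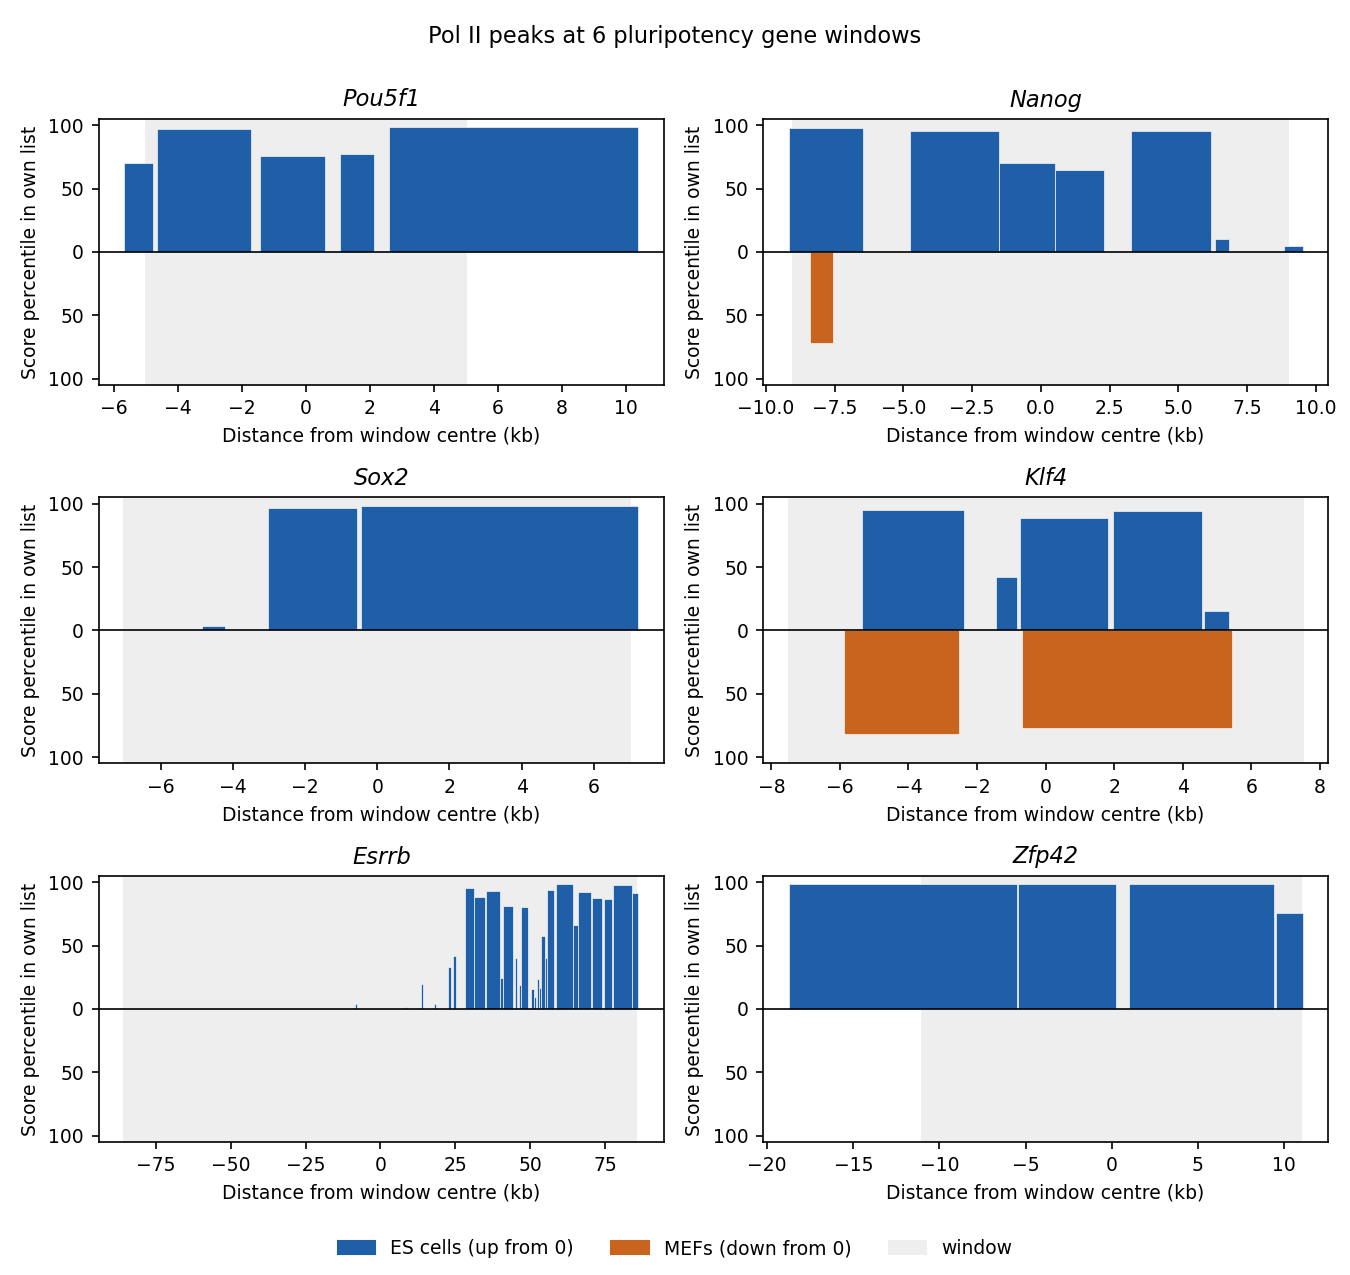
Pol II peaks that touch each window, drawn to scale along the distance from the window's centre (kb), with height giving the score percentile within the peak's own list (ES cells upward, MEFs downward) and grey marking the window. MEF peaks appear at Nanog, inside the leftmost ES peak, and at Klf4, where they lie over 4 of the 5 ES peaks.

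Ranked within the ES list, the peaks of the 6 windows were shifted towards high scores but included very low ones. Of the 52, 19 lay in the top 10% by score (36.5%, against 10.0% of the list by definition), and their median percentile was 76.3. Each window supplied at least 2 of the 19, from 2 at Pou5f1, Sox2 and Klf4 to 7 at Esrrb. The best peak of every window lay at or above percentile 94.9. At 3100 or higher stood 5 of the 52 peaks, 3 of them at Zfp42, 1 at Pou5f1 and 1 at Esrrb, whereas 1.22% of the whole list reached that score. The Pou5f1 peak at 3100 and the widest Zfp42 peak lay mostly outside their windows. Of their widths, 2391 of 7794 bp and 5501 of 13264 bp were inside. None of the 3 MEF peaks was in the top 10% of the MEF list. The choice of genes was made with these lists known, so the counts describe the windows and test nothing.

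**Figure D3:**
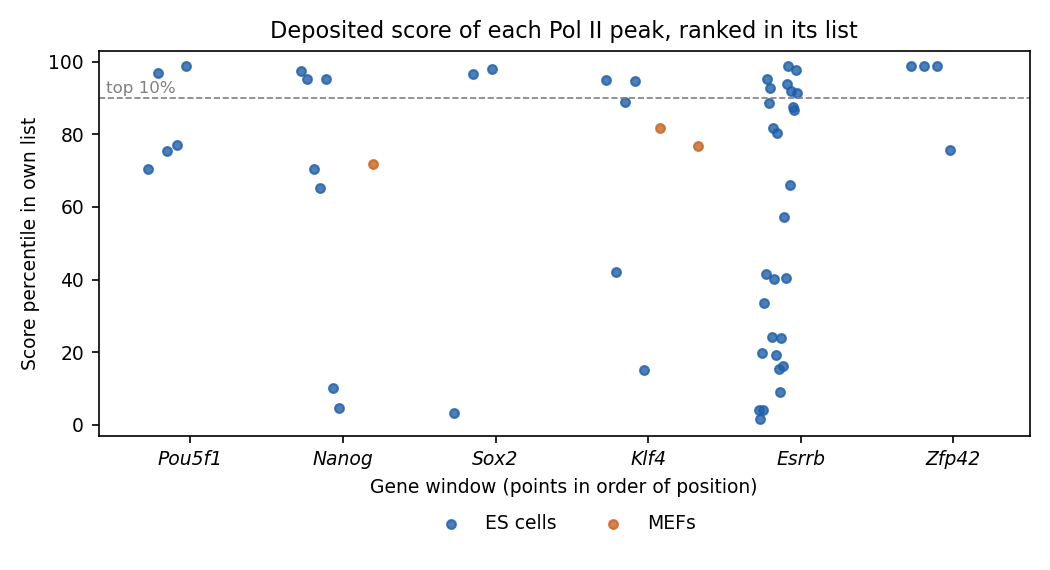
Score percentile of each of the 52 ES peaks (blue) and 3 MEF peaks (orange) within its own list, by window, with points in order of position and a dashed line at the top 10%. Every window has ES peaks above the line, Esrrb spans nearly the whole range, and the MEF peaks lie between 71.8 and 81.6.

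The peaks were also wide. In the ES list 10.0% of peaks are in the top 10% by width by definition, and 21 of the 52 (40.4%) were. Width goes with score, so part of this excess comes with the high scores. In the top score quartile 75.0% of the peaks of the windows were that wide, against 37.7% of all ES peaks of that quartile. In the top 10% by score it was 84.2%, against 62.1%. The median width of the 52 was 2007 bp against 955 bp for the list. The widest peaks were those already given at Zfp42, Pou5f1 and Sox2. At Klf4 3 of 5 peaks and at Nanog 3 of 7 were in the top 10% by width. Width was not used to choose the windows, but a window wholly filled by Pol II will hold wide peaks or many of them.

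**Figure D4:**
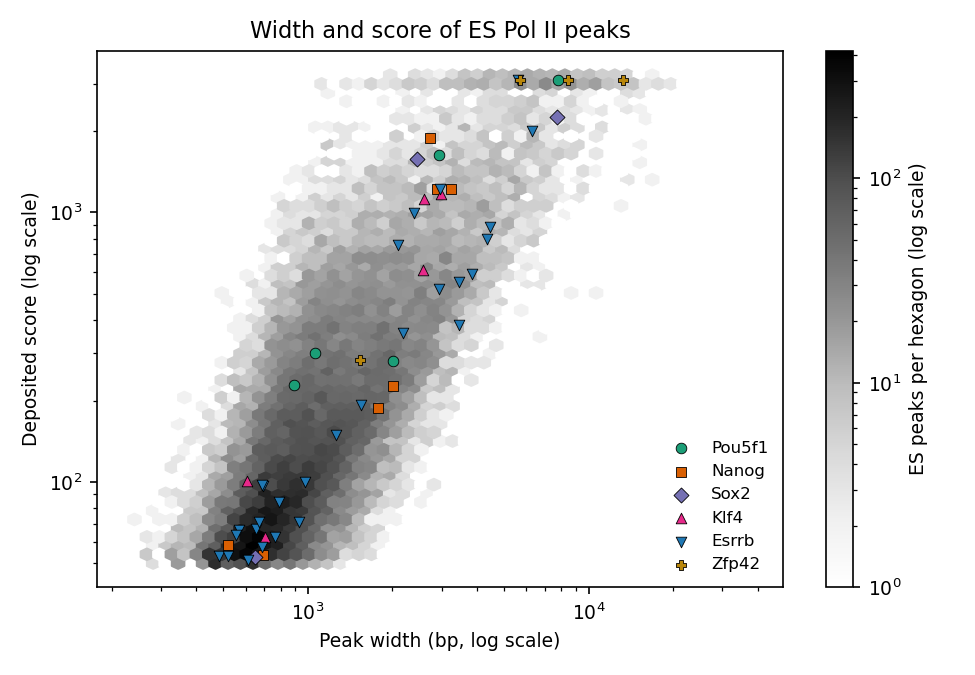
Peak width (bp, log scale) against deposited score (log scale) for all 32345 ES peaks (grey hexagons, shaded by number) and for the 52 peaks of the windows (coloured by gene). The strong peaks of all 6 genes lie among wide peaks, and the row at 3100 holds 370 peaks of equal score.

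The ES peaks of these windows lay close together. Of the 52, 45 lay within 1 kb of another ES peak, against 46.6% of all ES peaks, and none of the 3 MEF peaks had a neighbour that close, against 7.96% of all MEF peaks. Joining ES peaks at most 1 kb apart over the whole list gave 22531 runs with a median span of 1039 bp. The widest run at Esrrb spanned 39.8 kb with 15 peaks, chr12:87832901-87872699, and ranked 21 by span and 6 by number of peaks. A second Esrrb run of 21.0 kb with 8 peaks, chr12:87810716-87831694, ranked 127. Runs were not cut at window edges, and the widest at Esrrb, Zfp42, Pou5f1 and Sox2 reached past their windows. The run at the Zfp42 window spanned 29.8 kb (rank 48) and that at Pou5f1 16.1 kb (rank 235). Those at Nanog, Sox2 and Klf4 spanned 11.6 kb (rank 495), 11.5 kb (rank 501) and 10.7 kb (rank 577). All 6 were thus within the widest 577 of 22531 runs, at percentile 97.4 or above. Of these runs, 17264 were single peaks, so the percentile is mostly a rank above lone peaks. Only the widest run of each window was ranked here, and shorter ones in the windows reached down to percentile 2.69, at Esrrb. Joining was chosen after the peaks were seen, and the spans depended on it. With a gap of at most 500 bp the Esrrb run was 17.3 kb (rank 125 of 24910), that of Zfp42 19.0 kb (rank 104), that of Nanog 7.04 kb (rank 987) and that of Klf4 6.79 kb (rank 1057, the lowest of the 6). With 2 kb the Esrrb run grew to 62.0 kb (rank 12 of 19924) and the Nanog run to 18.7 kb (rank 273), and Klf4 was again lowest at rank 835.

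**Figure D5:**
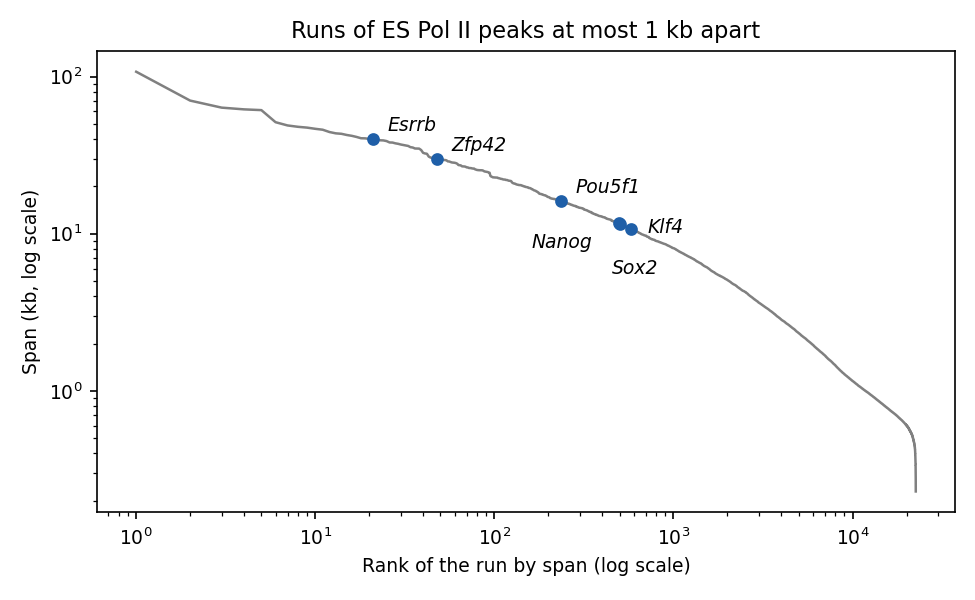
Span (kb, log scale) of the 22531 runs of ES Pol II peaks at most 1 kb apart, ordered by rank (log scale), with the widest run of each window marked. Esrrb (39.8 kb, rank 21) and Zfp42 (29.8 kb, rank 48) lie highest, and Nanog, Sox2 and Klf4 lie close together at ranks 495 to 577.

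Most ES peaks of the windows had no MEF peak, as had most ES peaks of the genome. The share was 46 of 52 (88.5%, exact Clopper-Pearson 95% interval 76.6 to 95.6%), against 73.0% of all ES peaks. The interval covers counting error over peaks only, and peaks of 1 window are not independent, so it is no test against the 73.0%. Esrrb alone supplied 28 of the 46, and without it the share was 18 of 24 (75.0%), near that of the whole list. Strong ES peaks are found in MEFs more often, so strong peaks are the closer comparison. In the top score quartile 23 of 28 peaks of the windows (82.1%) had no MEF peak, against 48.2% of all ES peaks of that quartile, and without Esrrb it was 11 of 16 (68.8%). In the top 10% it was 15 of 19 (78.9%), against 41.1%, and 7 of the 19 lay at Esrrb, all without a MEF peak. The quartile shares were added after the data were seen. The 6 ES peaks with a MEF partner were 4 at Klf4, 1 at Nanog and the peak of Pou5f1 that runs out of its window. All 3 MEF peaks of the windows overlapped an ES peak, as did 62.1% of all MEF peaks.

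In the 50 kb on either side of each window, ES peaks covered 11.6% of the bp, against 1.77% for the whole ES list. MEF peaks covered 0.532%, against 0.732% for the whole MEF list, but 0.990% of flanks of 20 kb, so the direction depended on flank size. Of the 32 ES peaks in the flanks, 8 were window peaks that ran out, and without these the coverage was 9.03%. The right flank of Nanog held a large part of it, and without that flank the ES coverage was 7.56%. A separate ES peak lay in 10 of the 12 flanks and a MEF peak in 2, whereas 22.6% of all 50 kb tiles held an ES peak and 18.7% a MEF peak. The flanks lie beside chosen genes and the tiles were laid without regard to genes, so the 2 are not like for like. The MEF flanks were those to the right of Pou5f1 (2 peaks) and to the left of Klf4 (1 peak). The flank richest in ES Pol II was that to the right of Nanog, of which 56.3% was covered. Its first peak wholly outside the window, chr6:122675291-122683373, was 5290 bp from it, with a score of 3100 and a width of 8083 bp, and the flank held no MEF peak. In GRCm38 gene order the protein-coding gene after Nanog is Slc2a3, a glucose transporter gene, and the one before it is Dppa3, another gene active in pluripotent cells. Which gene these peaks belong to was not determined.

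None of the 6 Pol III lists had a peak in any of the windows. The nearest was a POLR3C peak of ES cells, 1.48 Mb from the Pou5f1 window. These lists are short, with 13 to 317 peaks each, and only 1.16% of tiles as wide as the Esrrb window held a Pol III peak of any list, so nothing about the 6 genes is read from the absence.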

How the data were processed

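Peak lists of 8 immunoprecipitated libraries were used. The 2 inputs were not analysed here. Per the submitters' processing notes, CASAVA 1.8, Bowtie, SAMtools and HOMER were used with build mm9. Peak names in the Pol II lists are of the MACS type. The labels name no threshold, control or depth. The deposited score of each peak is the authors' own and its scale is not stated, so it served only to rank peaks within a list.

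Starts were read as 0-based and are printed 1-based. Windows came from a rule naming 6 genes, all of which are named. In each window the highest-scored peak is given in full, and outside it the nearest peak on each side. The members and lists were chosen with earlier results of these data known. Planned further gene lists needed an mm9 annotation and were not used. Peaks sharing at least 1 bp with a window were counted, covered bp was the union of peaks inside it, and every chromosome was tiled between its first and last peak of any list. No test was made, because each group is 1 library. Alternatives were peak midpoints, windows widened by 5 kb, median-score filtering, an ES list shortened to the length of the MEF list, merging at 1 kb, omission of Esrrb, other overlaps, ranks and flanks. Run spans, the top-quartile shares, omission of Klf4 and the flanks without Nanog's right side or without window peaks were added after seeing the data. The interval functions were checked on simulated peaks. Python 3.11.15, numpy 2.4.6, pandas 2.3.3, scipy 1.17.1 and matplotlib 3.10.9 were used.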

Additional observations from a re-analysis of the deposited data

How the results depend on the processing

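Covered bp changed less than counts of peaks. The 52 ES peaks became 33 above the median score of each list, 32 with the ES list shortened to the length of the MEF list, 15 after merging at 1 kb and 24 without Esrrb, whereas ES coverage stayed between 104997 and 136586 bp except without Esrrb (62820 bp, 79.5% of the other windows). MEF counts were 3 throughout, except 4 with widened windows, which took in the MEF peak of 1345 bp beside Pou5f1. With those windows Pou5f1 was no longer a gene without a MEF peak. At Klf4 the difference of -27 bp turned to 732 bp with widened windows and 1218 bp after merging, so neither cell type had the larger coverage under all settings. Members in the top 10% were 19 to 21 in ES cells under the 4 rankings run, and in MEFs 0 by score and 2 by width. The share of ES peaks without a MEF peak was 82.1 to 88.5% under the other overlaps and filters, with the whole list at 48.2 to 74.0%. It was 75.0% without Esrrb, 95.7% without Klf4 and 68.8% in the top quartile without Esrrb. Flanks of 20 kb were covered to 18.3% in ES cells and 0.990% in MEFs, and without the right flank of Nanog the ES share fell from 11.6% to 7.56%. With 1 library per group no replicate could be left out. No paired analysis was possible because each group has 1 library and no test was made.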
